A study of Mus musculus with 24 samples.

Results

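The genes described here are 8 of the 15736 in the deposited count table: the FGF ligands Fgf3 and Fgf10, the receptors Fgfr1, Fgfr3 and Fgfr4, the decoy receptor Fgfrl1, and the modulators Flrt3 and Il17rd. They were chosen by name, and all 8 were found and tested. Fgfr2 was left out because transgene reads fall in it. The RNA came from the epithelium of mouse otocysts, the vesicles that form the inner ear, dissected and pooled by genotype within each litter. Control pools (con) came from embryos of genotype Rosa26rtTA/+. The experimental pools (R2b) were Rosa26rtTA/+;Tg(tetO-s(dn)Fgfr2b)/+ and so carried, in addition, a doxycycline-inducible gene for a secreted, dominant-negative FGFR2b that binds ligand without signalling. Both genotypes carried the activator rtTA and both received doxycycline, as an injection of 1.5 mg/kg followed by chow with 200 mg/kg. The Rosa26 locus is active in most tissues, so induction of the trap is not limited to the otocyst. Exposure was begun at E9.75 for 12 hours (the 12 h exposure, E9.75+12h in the figures), at E9.25 for 24 hours (the early 24 h exposure, E9.25+24h) or at E10.25 for 24 hours (the late 24 h exposure, E10.25+24h). Otocysts were therefore collected at E10.25 in the first pair and at E11.25 in the late exposure. The 12 h exposure has 3 litters with counts and each 24 h exposure 4, which makes 22 libraries of 18.7 to 28.2 M counts. The labels give no strain.

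As background, FGFs are secreted proteins that bind receptor tyrosine kinases with heparan sulfate as a cofactor, and the kinases act largely through the RAS to ERK cascade. FGF3 and FGF10 bind the b splice form of FGFR2, the receptor whose soluble form was induced here, and both act in forming and shaping the otic vesicle. ERK signalling induces ETS transcription factors and a set of feedback inhibitors, among which is Il17rd.

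Libraries went against their labels in a single exposure. Reads of the trap fall in Ighg1 as well as Fgfr2, since it is a fusion of FGFR2b sequence with an immunoglobulin constant region. Ighg1 had at most 36 counts in any con library of the exposures that ended at E10.25, and at least 19414 in any R2b library there. Litters 1 to 4 of the late 24 h exposure had 15754, 28, 5106 and 16 counts in their con pools and 1504, 25248, 23658 and 19155 in their R2b pools. The litter 1 libraries thus went against their labels, and the library labelled con of litter 3 carried transgene reads too. All libraries stayed under their labels. The members' fold changes in the late 24 h exposure are given with and without litter 1, and without litters 1 and 3. So are its contrast with the early one for Flrt3, Fgfr3 and Fgf3, and its results for the lists of FGF ligands, coreceptors, adaptors and FGF-induced transcripts. All 15 otic epithelium markers were in the table, with summed levels of 2746 to 8229 CPM per library (CPM are counts scaled to library size, with trimmed mean of M-values factors). Library names begin with a number that differs between exposures and whose meaning is not given in the sources used here. A difference in level between exposures cannot be told apart from what goes with that number. The RNA was bulk, and fewer cells expressing a gene cannot be told apart from less RNA per cell. The p-values measure the spread between litter pools.

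The promoters of these genes were searched for the letters CCGGAAG, a motif bound by ETS factors, on both strands. Shorter or other ETS sites were not searched for. The windows, from RefSeq on GRCm38.p6, run from 250 bases before to 50 bases after the start. Of 32851 windows in the table, 2910 (8.86%) held this motif, and 1 of the 8 windows of 7 members did, that of Fgfrl1. Fgfr3 has a pair of windows. The 3 sequences shown are those of the member with the motif and of Flrt3 and Il17rd, whose levels ran opposite across the libraries. Each is printed 5′ to 3′ on the strand of the gene, and capitals mark the motif, which starts at base 203 of the Fgfrl1 window. A match is a description and not a site of binding.
Fgfrl1 chr5:108693979-108694278, plus strand: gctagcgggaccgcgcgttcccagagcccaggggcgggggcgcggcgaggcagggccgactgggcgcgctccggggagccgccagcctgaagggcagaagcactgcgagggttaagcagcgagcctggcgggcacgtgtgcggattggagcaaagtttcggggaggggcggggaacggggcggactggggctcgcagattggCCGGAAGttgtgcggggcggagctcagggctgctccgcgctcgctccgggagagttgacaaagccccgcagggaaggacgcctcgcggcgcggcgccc
Flrt3 chr2:140671427-140671726, minus strand: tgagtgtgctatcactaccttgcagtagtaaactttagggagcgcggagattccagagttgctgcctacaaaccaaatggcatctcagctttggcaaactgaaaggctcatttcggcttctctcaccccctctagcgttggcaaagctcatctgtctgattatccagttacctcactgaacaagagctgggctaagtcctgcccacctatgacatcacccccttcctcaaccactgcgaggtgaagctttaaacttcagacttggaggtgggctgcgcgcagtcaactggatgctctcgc
Il17rd chr14:27038751-27039050, plus strand: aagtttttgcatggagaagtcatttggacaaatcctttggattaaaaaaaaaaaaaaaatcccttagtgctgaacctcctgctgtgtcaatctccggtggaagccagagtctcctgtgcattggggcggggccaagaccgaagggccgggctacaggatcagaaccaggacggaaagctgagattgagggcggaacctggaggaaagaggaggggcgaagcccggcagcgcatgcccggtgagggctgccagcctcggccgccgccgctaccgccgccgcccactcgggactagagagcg

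After 12 hours of the trap, 3 of the 8 members passed the test: Fgfr4 and Fgfrl1 rose and Il17rd fell. After 24 hours with the same end stage, in the early 24 h exposure, 4 of 8 passed: Fgf3, Fgfr3 and Flrt3 rose and Il17rd fell. In all, 0 of the 8 passed in the late 24 h exposure. The test was the quasi-likelihood test of edgeR within each exposure, with Benjamini-Hochberg adjustment over all genes tested (FDR), and a gene was called at an FDR under 0.05. Over all genes, 20.0% were called after 12 h, 1518 genes higher and 1455 lower. The share was 15.6% in the early 24 h exposure, with 1362 higher and 973 lower. For the late one it was 0%, or 0 of 15203 genes, with 175 genes and 0 members at an unadjusted p under 0.05, and DESeq2 called 0 members as well. The con and R2b libraries did not overlap for 4 members after 12 h and 4 in the early 24 h exposure, against 39.1% and 22.4% of all genes. Free of overlap in the late 24 h exposure were 0 members and 152 of 15203 genes, and without litter 1 it was 3 members beside 23.3% of genes. The median log2 fold change of R2b over con among the 8 was 0.36, 0.32 and 0.11 in the order of exposures, beside medians of 0.011, -0.010 and 0.0014 over all genes tested. Without litter 1 the late median of the members was 0.11, and 0.18 without litters 1 and 3.

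**Figure D1:**
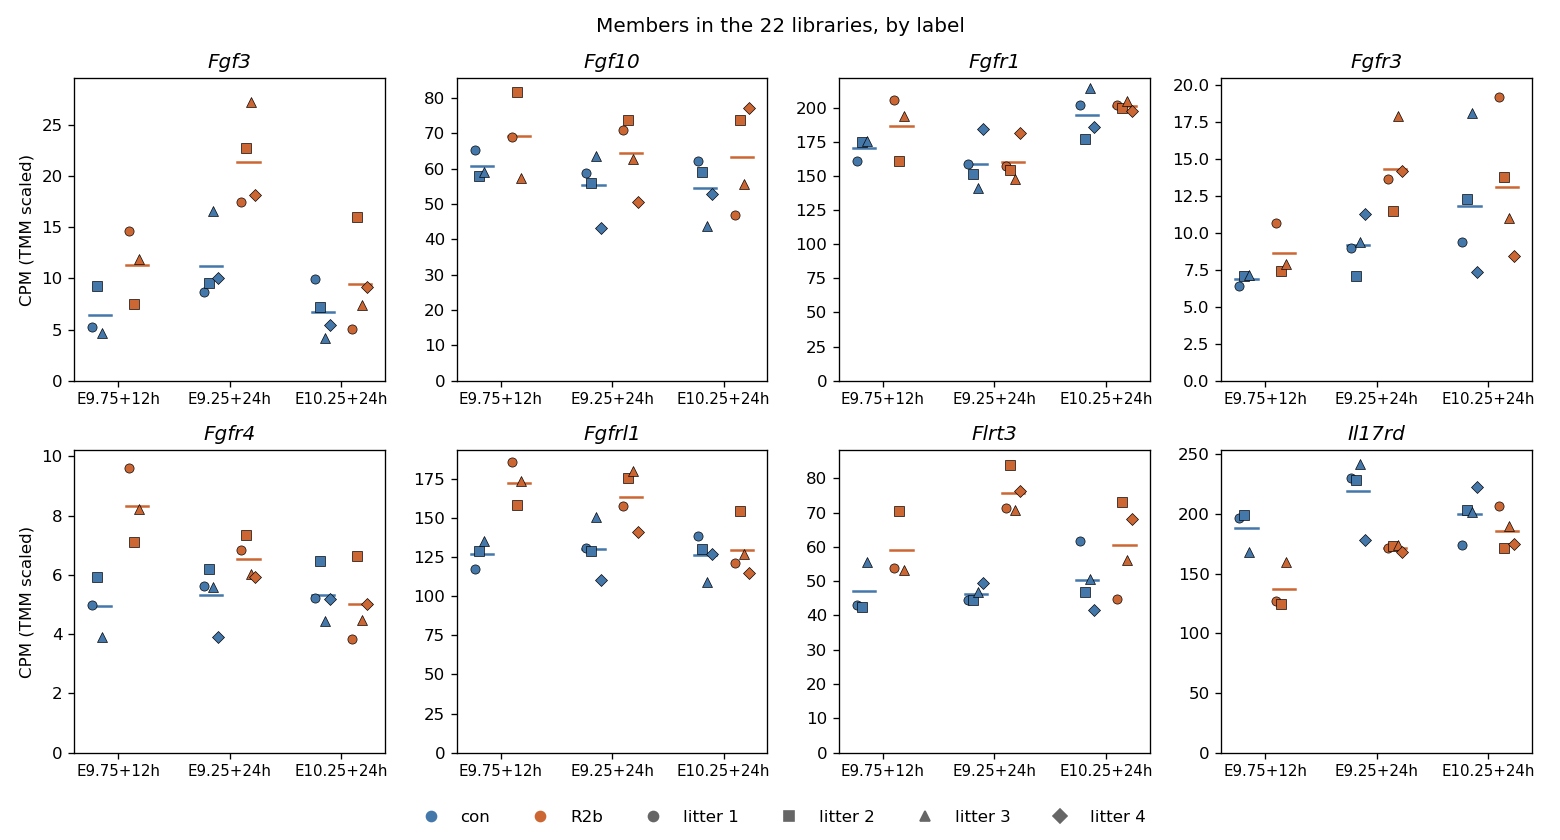
Level of each member in every library, in CPM scaled by trimmed mean of M-values, by exposure and label; symbols give the litter and horizontal lines the mean of a group. Flrt3 in the early 24 h exposure has the R2b libraries at 70.8 to 83.9 CPM, all above the con libraries at 44.4 to 49.4 CPM.

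Fgf3 (ENSMUSG00000031074, chromosome 7, 144838083 to 144844436, plus strand, GRCm38, protein-coding) encodes a ligand made by otic epithelium and by the hindbrain beside it. Its level in the early 24 h exposure was 8.67, 9.54, 16.6 and 10.1 CPM in con and 17.5, 22.7, 27.2 and 18.1 CPM in R2b, for litters 1 to 4. The groups did not overlap, and litter 3 was the highest in both. This is a log2 ratio of 0.94 (SE 0.23, edgeR FDR 0.0258), with R2b higher in 4 of 4 litters. The call was lost when any of 5 single pools was left out, with FDRs of 0.0517, 0.0770 and 0.0567 without the R2b pools of litters 1, 2 and 3 and of 0.0614 and 0.0620 when it was the con pool of litter 1 or 2. It was also lost without litter 1 (FDR 0.108) or litter 2 (0.141), and in one fit of all libraries (0.0629). The call held with the litter as a block (edgeR FDR 4.33e-05) and in DESeq2 (adjusted p 7.23e-04). It also held in each blocked fit without 1 litter (highest FDR 6.22e-04). After 12 h Fgf3 was at 5.28, 9.22 and 4.69 CPM in con and at 14.6, 7.51 and 11.9 CPM in R2b. Litter 2 had the highest con and the lowest R2b library, and the groups overlapped there. On the log2 scale R2b differed from con by 0.85 (SE 0.29, edgeR FDR 0.0609). It passed in DESeq2 (adjusted p 0.0213), without the R2b pool of litter 2 (edgeR FDR 0.0155), without the con pool of litter 2 (1.21, FDR 0.0249) and without that litter (1.43, FDR 0.00298). The hindbrain neural tube is another source of Fgf3. Of its 14 markers, 6 were in the table. They summed to 20.5 to 36.1 CPM in con and 27.0 to 47.5 CPM in R2b after 12 h, and to 6.71 to 141 CPM and 18.6 to 146 CPM in the early 24 h exposure, with litter 4 highest in both groups. Hoxb1, Egr2, Olig2, Pax6, Dbx1, Dbx2, Nkx2-2 and Foxa2 were not among the genes of the table. For Fgf3, the con pool of litter 4 (10.1 CPM) lay above those of litters 1 and 2 and below that of litter 3. The R2b pool of litter 4 (18.1 CPM) lay above that of litter 1 and below those of litters 2 and 3. The part of hindbrain cells in the difference of Fgf3 was not tested. The summed otic markers were at 2746 to 4129 CPM in con and 3907 to 5810 CPM in R2b in the early 24 h exposure. After 12 h they were at 4435 to 4691 and 4998 to 5865 CPM. Single otic markers went both ways. Of the 15, 3 were called higher and 4 lower in the early 24 h exposure, beside 15.6% of all genes called. After 12 h it was 6 higher and 1 lower, beside 20.0%. The part of these markers in the result was not tested.

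Fgf10 (ENSMUSG00000021732, chromosome 13, 118669791 to 118792115, plus strand, protein-coding) encodes the other main ligand of the trapped receptor. It was at 65.2, 57.9 and 59.0 CPM in con and 69.0, 81.6 and 57.3 CPM in R2b after 12 h. The libraries of the early 24 h exposure were at 58.8, 56.0, 63.4 and 43.1 CPM in con and 70.9, 73.6, 62.6 and 50.5 CPM in R2b. The groups overlapped in both, with litter 3 the only litter in which R2b was not the higher pool. The log2 fold changes were 0.22 (SE 0.13, edgeR FDR 0.261) and 0.23 (SE 0.15, FDR 0.328). The litters of the early 24 h exposure differed in a way that con and R2b shared, litter 4 being lowest in both, and with the litter as a block the value was 0.22 with an FDR of 0.0161. That call was lost in the blocked fits without litter 1 (FDR 0.0749) or litter 2 (0.0649).

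Fgfr1 (ENSMUSG00000031565, chromosome 8, 25513654 to 25575718, plus strand, protein-coding) encodes a kinase receptor. Its level per length of transcript was above those of Fgfr3 and Fgfr4, and Fgfr2 was not ranked. After 12 h it was at 161, 174 and 176 CPM in con and 206, 160 and 194 CPM in R2b. After the early 24 h exposure it was at 159, 151, 141 and 184 CPM in con and 157, 154, 148 and 181 CPM in R2b. The groups overlapped in both, and in the early 24 h exposure each R2b pool lay beside the con pool of its own litter. The log2 fold changes were 0.15 (SE 0.11, edgeR FDR 0.327) and 0.016 (SE 0.087, FDR 0.922). Without the R2b pool of litter 2 the first was 0.25 and passed (FDR 0.0385).

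Fgfr3 (ENSMUSG00000054252, chromosome 5, 33721674 to 33737068, plus strand, protein-coding) encodes a receptor later used in the organ of Corti. Libraries of the early 24 h exposure had it at 8.95, 7.11, 9.37 and 11.2 CPM in con and at 13.6, 11.5, 17.9 and 14.2 CPM in R2b. The groups did not overlap, though the lowest R2b library, of litter 2, was at 11.5 CPM beside 11.2 CPM in the con pool of litter 4. R2b exceeded con by 0.65 on the log2 scale (SE 0.17, edgeR FDR 0.0341), and R2b was the higher pool in 4 of 4 litters. The call was lost without 6 of the 8 pools taken singly. The FDRs were 0.0797, 0.0712 and 0.0541 without the R2b pools of litters 1, 3 and 4, and 0.0733, 0.0653 and 0.0706 with the con pool of litter 1, 2 or 3 dropped. It was lost as well without litters 1, 2 or 3 (FDR 0.152, 0.0730 and 0.118) and in one fit of all libraries (0.0979). The call held with the litter as a block (edgeR FDR 8.07e-04) and in DESeq2 (adjusted p 0.00431). It also held in each blocked fit without 1 litter (highest FDR 0.00698). After 12 h the con libraries were at 6.43, 7.06 and 7.12 CPM and the R2b libraries at 10.6, 7.43 and 7.87 CPM. They did not overlap, but litter 1 stood well above the other R2b pools. This is a log2 ratio of 0.36 (SE 0.19, edgeR FDR 0.209).

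Fgfr4 (ENSMUSG00000005320, chromosome 13, 55152640 to 55168759, plus strand, protein-coding) encodes the remaining kinase receptor among the members. After 12 h it was at 4.97, 5.92 and 3.92 CPM in con and at 9.62, 7.11 and 8.24 CPM in R2b, with no overlap. Litter 2, with the highest con and the lowest R2b library, had the smallest ratio. On the log2 scale R2b differed from con by 0.78 (SE 0.21, edgeR FDR 0.0268), and R2b was the higher pool in 3 of 3 litters. The FDR was 0.127 and 0.0663 without the R2b pools of litters 1 and 3, 0.0795 and 0.0842 with the con pool of litter 1 or 3 dropped, and 0.252 and 0.142 without litters 1 and 3. With the litter as a block it was 0.0684. Fgfr4 in the early 24 h exposure was at 5.63, 6.21, 5.59 and 3.89 CPM in con and at 6.84, 7.33, 6.04 and 5.92 CPM in R2b. R2b was higher in 4 of 4 litters but the groups overlapped, and the log2 fold change of 0.30 (SE 0.17, edgeR FDR 0.260) did not pass.

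Fgfrl1 (ENSMUSG00000008090, chromosome 5, 108692382 to 108706924, plus strand, protein-coding) encodes a receptor-like protein that binds FGFs and lacks the kinase domain. After 12 h it was at 117, 129 and 136 CPM in con and at 185, 158 and 173 CPM in R2b. The groups did not overlap, and R2b was higher in 3 of 3 litters. R2b exceeded con by 0.46 on the log2 scale (SE 0.10, edgeR FDR 0.00846). It passed with the litter as a block (FDR 0.0341), but not in the blocked fits without litter 1 (0.3065) or litter 3 (0.0727). The call was also lost without the R2b pool of litter 1 (0.41, FDR 0.0505) and, unblocked, without litter 1 (0.35, FDR 0.187). Its early 24 h values were 131, 129, 150 and 110 CPM in con and 157, 175, 180 and 141 CPM in R2b. R2b was higher in 4 of 4 litters while the groups overlapped, since litter 4 was lowest and litter 3 highest in both. This is a log2 ratio of 0.33 (SE 0.11, edgeR FDR 0.0647). It passed with the litter as a block (FDR 1.21e-04), in DESeq2 (adjusted p 0.0210) and in one fit of all libraries (0.0423). It also passed without the R2b pool of litter 4 (0.0370), the con pool of litter 3 (0.0428) or litter 4 (0.0331).

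Flrt3 (ENSMUSG00000051379, chromosome 2, 140650914 to 140671469, minus strand, protein-coding) encodes a transmembrane protein that binds FGF receptors and is known as a positive modulator of their signalling. In the early 24 h exposure it was at 44.4, 44.6, 46.9 and 49.4 CPM in con and at 71.3, 83.9, 70.8 and 76.3 CPM in R2b, with a gap between the groups wider than the range of either. On the log2 scale R2b differed from con by 0.71 (SE 0.07, edgeR FDR 7.68e-04), with 4 of 4 litters higher. This call held in all 24 alternatives, with FDRs of 2.58e-17 to 0.0226. After 12 h Flrt3 was at 43.0, 42.5 and 55.5 CPM in con and at 53.8, 70.3 and 53.4 CPM in R2b. Litter 3 was the exception, its con library lying above 2 of the 3 R2b libraries. R2b exceeded con by 0.36 on the log2 scale (SE 0.14, edgeR FDR 0.0994), and without litter 3 it was 0.55 (FDR 0.0412). The libraries that stood high for Flrt3 after 12 h were R2b litter 2 and con litter 3. The 14 mesenchyme markers summed highest there, at 463 and 425 CPM against 140 to 286 CPM in the other 4. Those libraries were also highest for hindbrain markers (47.5 and 36.1 CPM) and endothelium markers (32.3 and 52.0 CPM). The mesenchyme sum in the early 24 h exposure was 95.9 to 1381 CPM in con and 107 to 1279 CPM in R2b. It was highest in litter 4 of both, where Flrt3 was at 49.4 and 76.3 CPM. Without litter 4 the log2 fold change of Flrt3 in the early 24 h exposure was 0.74 (FDR 0.00213). The part of any of these cells in its values was not tested.

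Il17rd (ENSMUSG00000040717, chromosome 14, 27038941 to 27107286, plus strand, protein-coding), also called Sef, encodes a transmembrane inhibitor of ERK signalling that FGF itself induces. It was the member that fell in both exposures that ended at E10.25. After 12 h it was at 197, 199 and 168 CPM in con and at 127, 125 and 160 CPM in R2b. The groups did not overlap, but litter 3 was close, its 2 pools being the lowest con and the highest R2b library. This is a log2 ratio of -0.43 (SE 0.12, edgeR FDR 0.0269), with 3 of 3 litters lower. It was lost without the R2b pool of litter 1 (FDR 0.120), the con pool of litter 1 (0.0980) or the con pool of litter 2 (0.0988), without litter 1 (0.285) or litter 2 (0.0819), and with the litter as a block (0.0749). In the early exposure of 24 h it was at 231, 228, 242 and 178 CPM in con and at 171, 173, 174 and 168 CPM in R2b. The R2b libraries were tightly grouped, and the con pool of litter 4 stood near them. On the log2 scale R2b differed from con by -0.35 (SE 0.09, edgeR FDR 0.0317), with 4 of 4 litters lower. Without litter 4, whose pools had the highest sums of mesenchyme and endothelium markers, it was -0.43 (FDR 0.00195). The call was lost without any of 7 single pools, with FDRs of 0.0868, 0.0821, 0.0589 and 0.0587 without the R2b pools of litters 1 to 4 and of 0.0724, 0.0780 and 0.0752 without the con pools of litters 1 to 3. Without litters 1, 2 and 3 in turn the FDR was 0.166, 0.164 and 0.115. The call held with the litter as a block (edgeR FDR 0.00116) and in DESeq2 (adjusted p 0.0028). It also held in each blocked fit without 1 litter (highest FDR 0.0130).

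**Figure D2:**
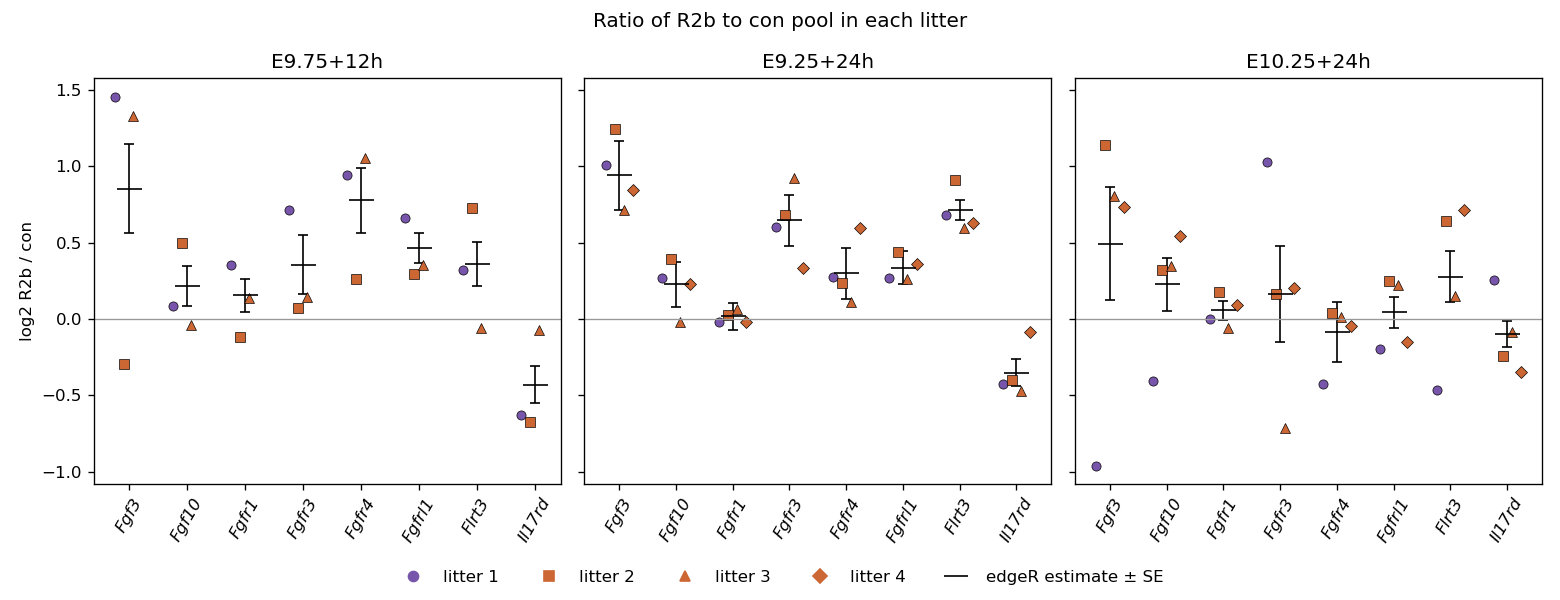
Log2 ratio of the R2b to the con pool of each litter for the 8 members, by exposure, with the edgeR estimate and its SE in black. Litter 1 of the late 24 h exposure, in purple, lies on the other side of 0 from litters 2 to 4 for Fgf3, Fgf10, Flrt3 and Il17rd.

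No member separated the libraries by label in the late 24 h exposure. Fgf3 was at 9.91, 7.22, 4.22 and 5.48 CPM in the con-labelled libraries, by litter, and at 5.05, 16, 7.43 and 9.15 CPM in the R2b ones. Fgf10 was at 62.0, 59.0, 43.9 and 52.9 CPM, and at 46.8, 73.7, 55.7 and 77.1 CPM. For both ligands the litter 1 library labelled con was the highest of its group, and the one labelled R2b the lowest. Flrt3 was at 61.8, 46.9, 50.7 and 41.5 CPM in con and 44.8, 73.2, 56.1 and 68.0 CPM in R2b. Il17rd was at 174, 204, 201 and 222 CPM in con and 207, 172, 190 and 175 CPM in R2b. In these genes as well, litter 1 held the extreme libraries of both labels, at the end nearer the other label.

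The receptors were less ordered by litter at that exposure. Fgfr3 was at 9.35, 12.3, 18.1 and 7.32 CPM in con and 19.1, 13.8, 11 and 8.42 CPM in R2b. Its highest libraries were thus R2b of litter 1 and con of litter 3. Fgfr1 was at 202, 177, 214 and 186 CPM and at 202, 200, 205 and 198 CPM, Fgfr4 at 5.21, 6.46, 4.46 and 5.20 CPM and at 3.85, 6.63, 4.49 and 5.03 CPM. Fgfrl1 was at 139, 130, 109 and 127 CPM in con and 121, 154, 127 and 115 CPM in R2b. All groups overlapped.

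The log2 fold changes of all 4 litters of the late 24 h exposure were 0.49 for Fgf3 (SE 0.37), 0.23 for Fgf10 (SE 0.17), 0.28 for Flrt3 (SE 0.17) and -0.098 for Il17rd (SE 0.085), each with an edgeR FDR of 0.9999. Of the receptors, Fgfr1 was at 0.055 (SE 0.063), Fgfr3 at 0.16 (SE 0.31), Fgfr4 at -0.085 (SE 0.20) and Fgfrl1 at 0.043 (SE 0.10), with the same FDR. R2b was the higher pool for 2 of the 8 members in litter 1 and for 7, 5 and 5 in litters 2 to 4. Without litter 1 the values were 0.96 for Fgf3 (edgeR FDR 0.227), 0.43 for Fgf10 (0.251), 0.52 for Flrt3 (0.1246) and -0.21 for Il17rd (0.203). They were 0.082 for Fgfr1, -0.17 for Fgfr3, 0.022 for Fgfr4 and 0.13 for Fgfrl1, so that Fgfr3 and Fgfr4 changed sign. With litters 1 and 3 left out they were 1.01, 0.45, 0.70 and -0.28 for Fgf3, Fgf10, Flrt3 and Il17rd, and 0.15, 0.20, 0.021 and 0.085 for Fgfr1, Fgfr3, Fgfr4 and Fgfrl1, and 0 members were called. With the litter as a block and litter 1 left out, Fgf3 (0.93, FDR 0.0253) and Fgf10 (0.42, FDR 0.0277) were called higher, while Flrt3 had 0.52 (FDR 0.0561) and Il17rd -0.21 (FDR 0.0975). That fit called 614 genes in all.

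Whether an effect differed between exposures was tested itself, as a contrast in one fit of all 22 libraries. For the early 24 h exposure against the 12 h exposure, 0% of 15688 genes and 0 members differed at an FDR under 0.05, with 1908 genes and 0 members at an unadjusted p under 0.05. The widest gaps among the members were those of Fgfr4, whose effect was 0.46 lower on the log2 scale after the longer exposure (difference -0.46, 95% interval -1.04 to 0.12), and of Flrt3, whose effect was larger by 0.37 (interval -0.075 to 0.82). For the ligands the differences were 0.11 (interval -0.95 to 1.16) for Fgf3 and 0.026 (interval -0.48 to 0.54) for Fgf10. For the late against the early 24 h exposure, likewise 0% of genes and 0 members differed, with 1344 genes and 1 member, Flrt3, at an unadjusted p under 0.05. The Flrt3 difference was -0.44 (interval -0.85 to -0.025, FDR 0.555). It was -0.20 (interval -0.55 to 0.15) without litter 1 of the late exposure and -0.030 (interval -0.40 to 0.34) without its litters 1 and 3. Fgfr3 went from -0.49 (interval -1.22 to 0.25) to -0.83 without litter 1 (interval -1.55 to -0.10, unadjusted p 0.0274, edgeR FDR 0.908) and to -0.46 without litters 1 and 3. For Fgf3 the difference was -0.45, 0.012 and 0.052 in these fits. In each, 0 genes and 0 members passed, with 773 genes at an unadjusted p under 0.05 without litter 1 and 476 without both. DESeq2 called 92 and 74 genes in these contrasts and 0 members in either.

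Levels of different genes were compared per kb of annotated exon. In con in the early 24 h exposure Fgfrl1 stood highest at 46.8 ± 5.90 CPM per kb (SD, n = 4), above Il17rd at 20.0 ± 2.58 and Fgfr1 at 16.1 ± 1.85. Fgf10 followed at 12.0 ± 1.89 and Flrt3 at 9.53 ± 0.485, then Fgf3 at 4.82 ± 1.55. Fgfr4 at 1.50 ± 0.283 and Fgfr3 at 1.28 ± 0.237 CPM per kb were lowest. The ranges of neighbours overlapped for Il17rd and Fgfr1, for Fgf10 and Flrt3 and for Fgfr4 and Fgfr3, so their order is not settled. The ranges of Fgfrl1 and Il17rd, of Fgfr1 and Fgf10, of Flrt3 and Fgf3 and of Fgf3 and Fgfr4 did not overlap. The decoy was thus the most abundant member per length, and of the kinase receptors Fgfr1 was far above Fgfr3 and Fgfr4. Per kb of the longest annotated transcript, Fgfr1 was at 31.5 CPM per kb and above Il17rd at 26.5, and Fgfr3 at 2.16 was above Fgfr4 at 1.60. Among R2b libraries of that exposure Flrt3 was at 15.5 ± 1.25 CPM per kb beside Il17rd at 15.6 ± 0.248. In con Flrt3 had been lower than Il17rd in every library.

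**Figure D3:**
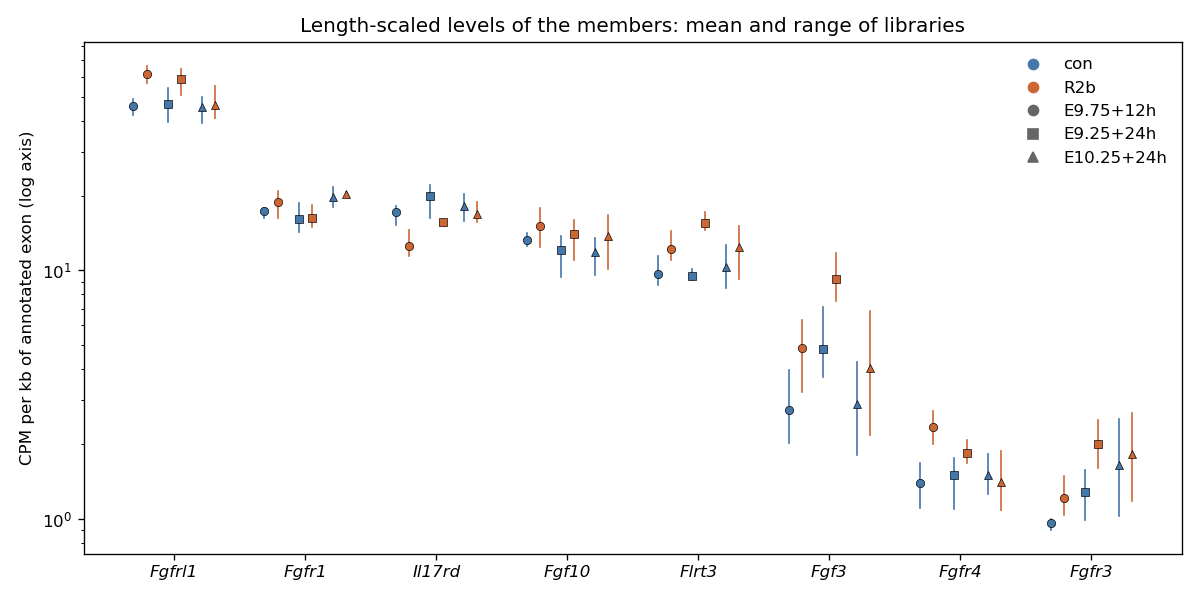
Level of each member as CPM per kb of annotated exon on a log axis; points are means over the libraries of a group, lines their range, symbols the exposure and colours the label. Fgfrl1 is highest and Fgfr3 and Fgfr4 are lowest in every group.

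The members varied together in part. Across the 22 libraries, on log2 CPM centred on the mean of each exposure, the highest r between 2 members was 0.82 for Fgf3 with Fgfrl1. It was 0.77 for Fgfr4 with Fgfrl1 and 0.71 for Fgf3 with Fgfr4. The lowest was -0.83, for Flrt3 with Il17rd, and it was -0.73 when each group mean was removed as well. Removing group means lowered Fgf3 with Fgfrl1 to 0.70 and Fgfr4 with Fgfrl1 to 0.57. The groups were those of the labels. In the late 24 h exposure litter 1 went against its labels and the con pool of litter 3 carried transgene reads. Differences by transgene can therefore remain in these values. Pools of one litter share a mother, so these values are descriptions.

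Of 11461 genes with a mean of at least 5 CPM, Fgf15 was the most like Fgf3 across the 22 libraries (r = 0.96), ahead of Jag1 (0.94), a Notch ligand, and Unc13d (0.93). Fgf15 lies on chromosome 7 within 100 kb of Fgf3. For Fgfrl1 the most alike were Gprc5c (0.95), Zdhhc12 (0.94) and Aldh7a1 (0.93), and for Flrt3 they were Lhfpl2 (0.94), B2m (0.92) and the gap junction gene Gja1 (0.92). Il17rd was most like Fam110b (0.92), Glt1d1 (0.92) and Spred3 (0.92), the last an inhibitor of RAS to ERK signalling. Fgf10 was most like Klhl14 (0.89), Nlk (0.88) and Scg5 (0.86), and Fgfr1 like Tln1 (0.90), Pdlim4 (0.88) and Plekhg2 (0.87). Fgfr4 was most like Fgd2 (0.88), Pacsin3 (0.88) and Sirpa (0.86). Fgfr3 had the weakest, Plagl1 (0.82), Tulp3 (0.76) and Fam198b (0.76). With the means of the labelled groups removed as well, these 24 values lay between 0.70 and 0.93, with the same limit for the late 24 h exposure.

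Other FGF ligands were taken from a list of 18, of which 11 were in the table. After 12 h, 10 were tested, 2 rose and 0 fell. Of 9 tested in the early 24 h exposure, 4 rose and 0 fell, Fgf3 among them. All 11 were tested in the late 24 h exposure and 0 passed. The shares of all genes called, in either direction, were 20.0%, 15.6% and 0%. The list medians were 0.15, 0.25 and 0.088. Without litter 1 the late median was 0.17, without litters 1 and 3 it was 0.25, and 0 passed in either fit. Fgf8, a ligand used across early development, had 1.20 ± 0.683 CPM in con after 12 h and 4.68 ± 0.942 CPM in R2b (mean ± SD of 3 pools each), which is 1.99 on the log2 scale (SE 0.40, edgeR FDR 0.00685). Fgf8 was at 1.40 ± 0.440 and 4.39 ± 0.779 CPM in the early 24 h exposure (mean ± SD of 4 pools each), which is 1.65 on the log2 scale (SE 0.25, FDR 0.00521). It was lost without litter 1 after 12 h (FDR 0.0668) and litter 2 in the early 24 h exposure (0.0622). Fgf15 had a log2 fold change of 0.92 after 12 h (SE 0.29, edgeR FDR 0.0470) and of 1.15 after the early 24 h (SE 0.22, FDR 0.0122). The first was lost without the R2b pools of litters 1 (0.173) or 3 (0.124), the con pools of litters 1 (0.141) or 3 (0.126), litters 1 (0.337) or 3 (0.236), with the litter as a block (0.101), in one fit of all libraries (0.0712), with median-of-ratios size factors (0.0503) and with no count filter (0.0521). The second was lost without litters 1 (0.0937) or 2 (0.0866). Fgf20, a ligand known from the prosensory cochlea, rose in the early 24 h exposure by 1.02 (SE 0.21, FDR 0.0169) and had 0.66 (FDR 0.0590) after 12 h. The call was lost without the R2b pools of litters 1 (0.0512) or 2 (0.0561) and without litters 1, 2 or 3 (0.0584, 0.0866 and 0.0629). Fgf9, at 22.6 to 77.0 CPM in con one of the more abundant ligands, had 0.030, 0.16 and -0.014, the last being 0.061 without litter 1 and -0.11 without litters 1 and 3. Fgf16 and Fgf17 were below con in 4 of 4 litters in the early 24 h exposure, with -0.61 (FDR 0.0666) and -0.75 (FDR 0.0635), and did not pass.

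**Figure D4:**
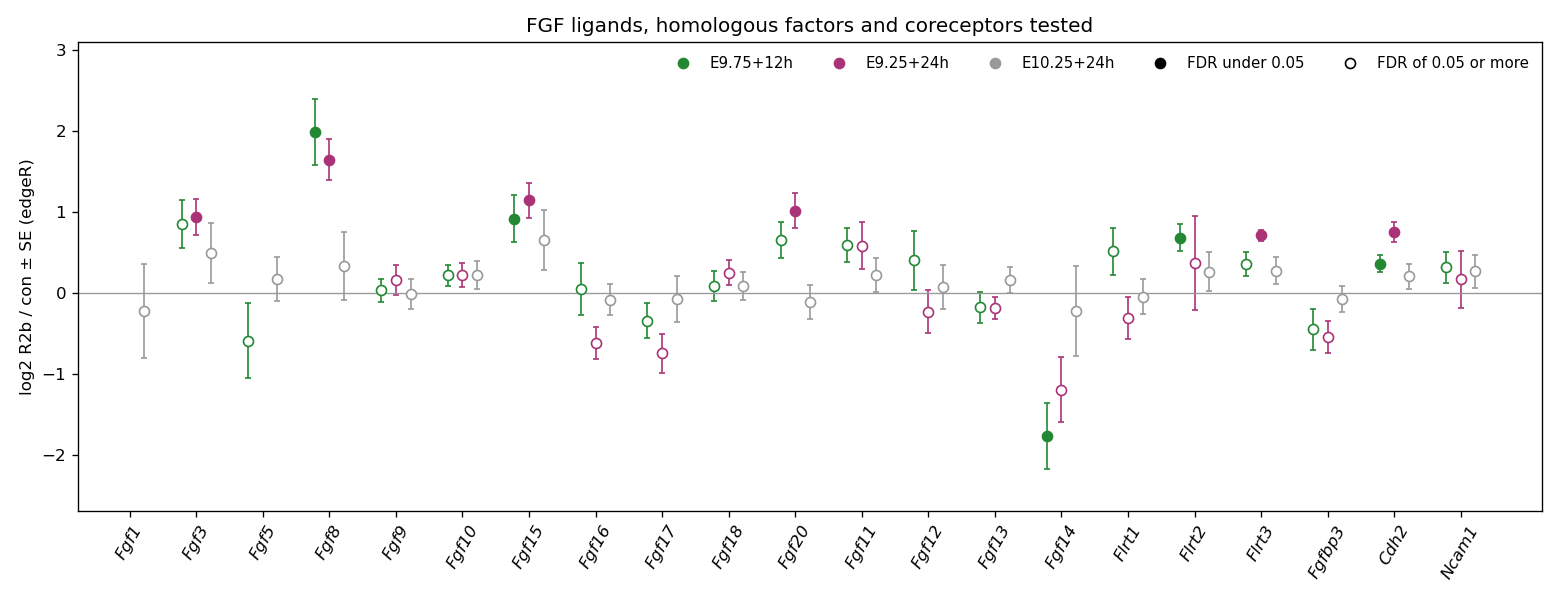
Log2 fold change of R2b over con with its SE for the tested FGF ligands, homologous factors and coreceptors, coloured by exposure; filled points have an FDR under 0.05. Among the ligands every filled point is above 0, and Fgf14, a homologous factor, is the only filled point below 0.

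The homologous factors Fgf11 to Fgf14 are intracellular and do not act on FGF receptors. Of these 4, 0 rose and 1 fell after 12 h, and 0 passed in the other exposures. Fgf14 went from 4.16 ± 1.39 to 1.22 ± 0.614 CPM (mean ± SD of 3 pools each), which is -1.77 on the log2 scale (SE 0.41, edgeR FDR 0.0127), lost without the con pool of litter 1 (FDR 0.0645) or litter 1 (0.137). Of 9 coreceptors and binding proteins, 6 were in the table and 2 rose in each exposure that ended at E10.25, with 0 lower. In the late 24 h exposure their median was 0.23, or 0.44 without litter 1 and 0.59 without litters 1 and 3, and 0 passed in any of these fits. For this list and the homologous factors, the shares of all genes called were 20.0% after 12 h and 15.6% in the early 24 h exposure. Flrt2, the paralog of Flrt3, was at 53.4 ± 12.1 and 84.4 ± 14.4 CPM after 12 h (mean ± SD of 3 pools each), which is 0.68 on the log2 scale (SE 0.17, FDR 0.0179). It was lost without the con pool of litter 2 (0.0527), without litter 1 (0.0661), with the litter as a block (0.0567) and in one fit of all libraries (0.348). Flrt2 reached 135 and 127 CPM in the litter 4 pools of the early 24 h exposure, where mesenchyme markers were highest, and had 0.37 (FDR 0.706) there. Cdh2, the cadherin that binds FGFR1, rose by 0.36 after 12 h (SE 0.11, FDR 0.0386) and by 0.75 after the early 24 h (SE 0.13, FDR 0.00729). Its first call was lost without the R2b pool of litter 3 (0.145) or any con pool (0.0771 to 0.128), without any litter (0.0909 to 0.208), with the block (0.0771) and in one fit of all libraries (0.117). The second was lost without litters 1 (0.0780) or 2 (0.0595).

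Downstream of the receptors most adaptor transcripts did not pass. Of 14 adaptors, 1 rose and 0 fell after 12 h, and 1 rose and 1 fell in the early 24 h exposure. These counts were under the shares of all genes called, 20.0% and 15.6%. Gab1, the docking protein, rose by 0.46 (SE 0.09, edgeR FDR 0.00518) and 0.35 (SE 0.06, FDR 0.0108), calls lost without litter 1 (0.129) and litter 2 (0.0835) respectively. Ptpn11, the phosphatase SHP2, had -0.13 (SE 0.04, FDR 0.0495) in the early 24 h exposure, and left out singly, 7 of the 8 pools ended that call (0.0695 to 0.145), all but the R2b pool of litter 4. It was lost too without any of the litters (0.0515 to 0.262), with median-of-ratios size factors (0.0501), with no count filter (0.0516), with a mean of at least 1 CPM (0.0579) and with robust dispersion (0.0554). In the RAS to ERK cascade, the scaffold gene Ksr1 rose by 0.78 (SE 0.12, FDR 0.00200) after 12 h, lost without litter 1 (0.0759). Map2k1, which encodes the kinase MEK1, had -0.29 (SE 0.08, FDR 0.0419) in the early 24 h exposure, lost without the R2b pools of litters 1, 2 or 4 (0.123, 0.103 and 0.0790) or the con pools of litters 1, 2 or 3 (0.0626, 0.0696 and 0.0562) and without litters 1, 2 or 4 (0.163, 0.148 and 0.0563). In the late 24 h exposure 0 adaptors passed, with or without litter 1 or litters 1 and 3.

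Il17rd belongs to a list of 13 transcripts known to be induced by FGF, which counts it among its members. After 12 h, 12 of the 13 fell and 0 rose, with a list median of -1.39, and in the early 24 h exposure 12 fell and 0 rose, with a median of -1.25. Il17rd moved less than the median in both, at -0.43 and -0.35. The late 24 h exposure had 0 called and a median of -0.36. Its median was -0.89 without litter 1, with 0 called, and -1.17 without litters 1 and 3, with 1 called, the ETS factor Etv4 at -2.16 (SE 0.13, edgeR FDR 0.0390). These counts stand beside 20.0% and 15.6% of all genes called. Some markers of other cells were called too, and the counts of these lists and of the cell cycle lists stand beside the same shares. After 12 h the neuroblast list was above the share of all genes. The mesenchyme, surface ectoderm, endothelium and blood lists were under it. Mesenchyme sums overlapped then, at 140 to 425 CPM in con and 272 to 463 CPM in R2b. After 12 h, 5 of the 9 sensory ganglion and neuroblast markers in the table rose and 0 fell, with sums of 293 to 334 CPM in con and 428 to 487 CPM in R2b. Of the tested mesenchyme markers 2 of 13 rose, Lum by 1.15 (SE 0.21, edgeR FDR 0.00423) and Dcn by 1.03 (SE 0.22, FDR 0.00851), and 0 fell. Krt8 was the 1 of 6 surface ectoderm and pharyngeal markers that rose, by 0.38 (SE 0.12, FDR 0.0439), and the sum of these markers did not overlap, at 421 to 506 CPM in con and 524 to 593 CPM in R2b. The endothelium marker Tek fell by 1.41 (SE 0.34, FDR 0.0158), 1 of 8 tested, and 0 of 6 blood markers passed. For the early 24 h exposure 0 markers of these lists passed. Neuroblast sums there were 204 to 440 CPM in con and 213 to 235 CPM in R2b, and surface ectoderm sums were 336 to 508 and 447 to 602 CPM, higher in R2b in 4 of 4 litters. Cell cycle genes moved in both exposures. The G2 and M phase list had 8 of 8 lower after 12 h and 3 of 8 lower in the early 24 h exposure, and the S phase list 7 of 8 and 4 of 8, with medians of -0.51 and -0.36. Their part in the members' values was not tested.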

How the data were processed

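Per the labels' protocols, RNA of each otocyst pool was selected with oligo(dT) and made into stranded libraries. Alignment to mm10 with Novoalign 2.08.03 is per the submitters' processing notes. The counting tool, its annotation and its strand setting are not given in the sources used here. The deposited table holds raw counts per gene, whole numbers made by the authors. Of 24 samples, 22 had a column, and 2 columns that name no sample were not used. No gene had under 100 counts summed over the used columns. Symbols, positions and exon lengths came from GENCODE M21 on GRCm38, with a symbol for 15522 genes and none for 214. Overlapping or antisense genes may share reads.

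Printed CPM are scaled by TMM over all 22 libraries. Fits used edgeR 4.0.16 under R 4.3.3 (filterByExpr, TMM within the exposure, glmQLFit, glmQLFTest), each exposure alone with 2 group means and a prior count of 0.125 for fitted fold changes. SEs were derived from the F statistic, and 95% intervals use the degrees of freedom of the fit. Correlations used a prior count of 2 and have no p. DESeq2 1.42.0 was an alternative. On simulated counts, 74%, 67% and 64% of genes changed 2-fold were recovered in the 12 h, early 24 h and late 24 h exposures, and 39%, 44% and 37% of those changed 1.5-fold. The simulation put each change in all R2b libraries and in no con library. By transgene reads, litter 1 and the con pool of litter 3 of the late 24 h exposure were otherwise. The late shares therefore do not measure recovery with the labels as they stand.

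Groups came from the labels and the litter from the titles. The labels state that each female gave both pools, which pairs them. The correlation across genes of same-litter deviations from the group means was -0.115, -0.236 and -0.255 after 12 h, where the values do not bear the pairing out. It was 0.424 to 0.765 in the early and -0.115, 0.387, 0.309 and 0.294 in the late 24 h exposure. The members and lists were chosen with earlier results of these data known. Genes named beside the members were at most 3 per list and exposure with the smallest FDR under 0.05, and the 3 most correlated with each member. Fgf9, Fgf16 and Fgf17 were named after their values were seen. A gene of the cascade list and a hindbrain marker are not reported here, and no counts of called genes are given for those lists.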

Additional observations from a re-analysis of the deposited data

How the results depend on the processing

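The member count moved with the fit and with single pools, and so did the count of all genes called. The latter was 2973 after 12 h, 434 without litter 1 and 4583 without the R2b pool of litter 2. In the early 24 h exposure it was 2335, 322 without litter 1 and 6086 with the litter as a block. With that block Fgf8, Fgf15, Fgf20, Cdh2, Gab1, Ptpn11 and Map2k1 also passed in the early 24 h exposure. After 12 h 3 members were called, but 1 with the litter as a replicate block, 1 at a fold change of at least 1.5, 0 and 1 where the block was used and litter 1 or 3 dropped, and 0 to 5 with a litter or pool left out. In the early 24 h exposure 4 were called, and 1 to 5 with a litter or pool left out. In the late 24 h exposure 0 were called, and 2 with the replicate block and litter 1 left out. No other fit with the block moved a count by over 1.5 times, although it gave 6 members in the early 24 h exposure. The other alternatives kept each count within that factor: median-of-ratios size factors, DESeq2, robust dispersion, all genes kept whatever their counts, genes kept from a mean of 1 CPM, one fit of all libraries and, chosen after seeing the data, the late 24 h exposure without litters 1 and 3. The late list values without litter 1 or litters 1 and 3, and the late contrast without both, were likewise chosen after seeing the data. Values near 0 changed sign. Fgfr1 in the early 24 h exposure ran from -0.047 to 0.088 with a litter or pool left out. In the late 24 h exposure Fgfr3 ran from -0.17 to 0.52, Fgfr4 from -0.25 to 0.023 and Fgfrl1 from -0.054 to 0.13. With the block, Fgfr3 had -0.12 and Fgfr4 0.020 without litter 1, and Fgfrl1 -0.037 and -0.026 without litters 2 and 3. Fgfr4 had 0.021 without litters 1 and 3. The cause of these changes was not tested. Precision was limited by the number of litters and, for Fgfr4, by as few as 71 counts in a library.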
